A study of Mus musculus with 4 samples.

Results

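The simple epithelial keratins are the intermediate filament proteins of single-layered epithelia, and 6 of their genes were followed here across cultured mouse ureters: Krt7, Krt8, Krt18, Krt19, Krt20 and Krt23. They were chosen by name among the 29924 gene names on the array and were read by 7 probes, 2 of them for Krt8. All 6 genes were among the 20231 tested, and each of the 7 probes was well above background in all 8 pools. Of the 6 genes, Krt20 changed with the genotype and with the treatment, whereas the log2 level of each of the other 5 spanned 0.89 or less over the 8 pools.

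Keratins assemble as pairs of an acidic type I and a basic type II chain, and an unpaired chain is usually degraded. Krt7 and Krt8 are type II genes, and Krt18, Krt19, Krt20 and Krt23 are type I genes. Krt8 and Krt18 form the classical pair of simple epithelia. In the urothelium, the stratified lining of the urinary tract, Krt7, Krt8, Krt18 and Krt19 are not restricted to the luminal layer, whereas Krt20 is a textbook marker of the terminally differentiated superficial (umbrella) cells that carry the uroplakin plaques, while Krt5 and Krt14 mark the basal layer. In the RefSeq gene table (GRCm38.p6), Krt20 and Krt23 are neighbouring genes on chromosome 11, where Krt19 also lies. Krt8 and Krt18 are neighbours on chromosome 15, where Krt7 also lies.

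Ureters of newborn (P0) NMRI mice were cultured on membranes for 8 d, either with the solvent DMSO or with 2 µM purmorphamine, an agonist of the hedgehog transducer Smoothened. Mutants (Pparg-cKO) carried Pax2-cre/+ and Pparg (fl/fl), an allele with loxP sites around exons 2 and 3. Pparg encodes a ligand-activated nuclear receptor. The cre transgene acts in epithelium that descends from the nephric duct, which within the ureter is the urothelium. Controls were labelled Pparg (fl/?) without cre, so the mutants alone carried the cre transgene, and an effect of cre cannot be told apart from that of the deletion. Each of the 4 groups (control and Pparg-cKO, each with DMSO and with purmorphamine) consisted of 1 male pool (replicate 1) and 1 female pool (replicate 2) of whole ureters, hence n = 2. DMSO and purmorphamine pools of the same genotype and sex were hybridised together on 1 two-colour array, giving 4 arrays on 1 slide. The dyes were swapped between the sexes, so that replicate number, sex and dye orientation cannot be told apart within a genotype. Between 66.3% and 70.5% of the 157716 spots of an array were well above background, no spot was saturated, and the number of arrays limits the precision.

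The Pparg probe gave log2 levels of 14.79 and 15.31 in the DMSO controls and of 15.55 and 15.58 in the Pparg-cKO pools with DMSO. It starts at base 1562 of its transcript and was not shown to lie in the deleted exons, so it is no check of the deletion. Of the 3 hedgehog targets, Ptch1 rose with purmorphamine in both genotypes, by 1.00 ± 0.12 (log2, SE; adjusted p = 0.043) in controls and by 1.62 ± 0.12 (adjusted p = 0.014) in Pparg-cKO ureters. Without the male or the female control array the Ptch1 value in controls was 1.16 or 0.84, and its call there was lost. Hhip rose in Pparg-cKO ureters by 2.19 ± 0.20 (adjusted p = 0.016). Gli1 was called in neither genotype, although all 3 targets had an unadjusted p under 0.05 by limma in both. Its log2 levels went from 12.13 and 12.79 to 13.70 and 13.35 in controls. In mutants the Gli1 levels went from 12.51 and 12.36 to 13.82 and 13.72. A test of the mean of both genotypes, added after the data had been seen, called all 3 targets higher and 14.2% of all genes. Treated mutants against DMSO controls also called all 3 higher, beside 11.4% of all genes. With 1 array left out all 3 stayed higher in that comparison, with medians from 0.98 to 1.64. These 3 calls did not all hold in any of those fits.

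Beyond the keratins described here, the female Pparg-cKO pools stood apart in some other keratins. Of 29 other keratins tested, 8 had with DMSO a log2 level more than 1 above that of the male pool of the same group and 21 lay within 1, and with purmorphamine 5 were more than 1 above and 24 within 1. In the controls all 29 lay within 1 with either treatment. Krt16, a stress-inducible keratin, reached 15.89 in the female DMSO mutants against 10.73 in the male ones, and Krt1, a keratin of cornifying layers, 14.46 against 7.25, while Krt4 (10.02 against 10.08) and Krt75 (9.75 against 9.53) were close. With purmorphamine Krt16 stood at 12.56 against 9.51 and Krt1 at 9.44 against 7.11. The simple epithelial keratins differed between the female and the male DMSO mutants by at most 0.37 in log2 level, for Krt7, but in the treated mutants Krt20 stood at 13.13 in the female and at 11.97 in the male pool.

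Krt20, the superficial cell keratin, was lower in the mutant and higher with purmorphamine. With DMSO its log2 level (normalised intensity) was 13.62 and 14.03 in the male and female control pools and 10.03 and 10.21 in the Pparg-cKO pools. With purmorphamine it was 14.73 and 15.20 in controls and 11.97 and 13.13 in Pparg-cKO ureters. The 4 groups did not overlap: control with purmorphamine was highest, followed by control with DMSO, Pparg-cKO with purmorphamine and Pparg-cKO with DMSO. In how many of all genes tested the groups stay apart was not counted. On the linear scale on which the 75th percentile of a channel is 1500, the Krt20 signal was 4840 and 5910 in the DMSO controls and 365 and 405 in the DMSO mutants. The spots of the Krt20 probe, 4 on each array, differed by an SD of 0.02 to 0.06 within a channel (log2 signal).

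**Figure D1:**
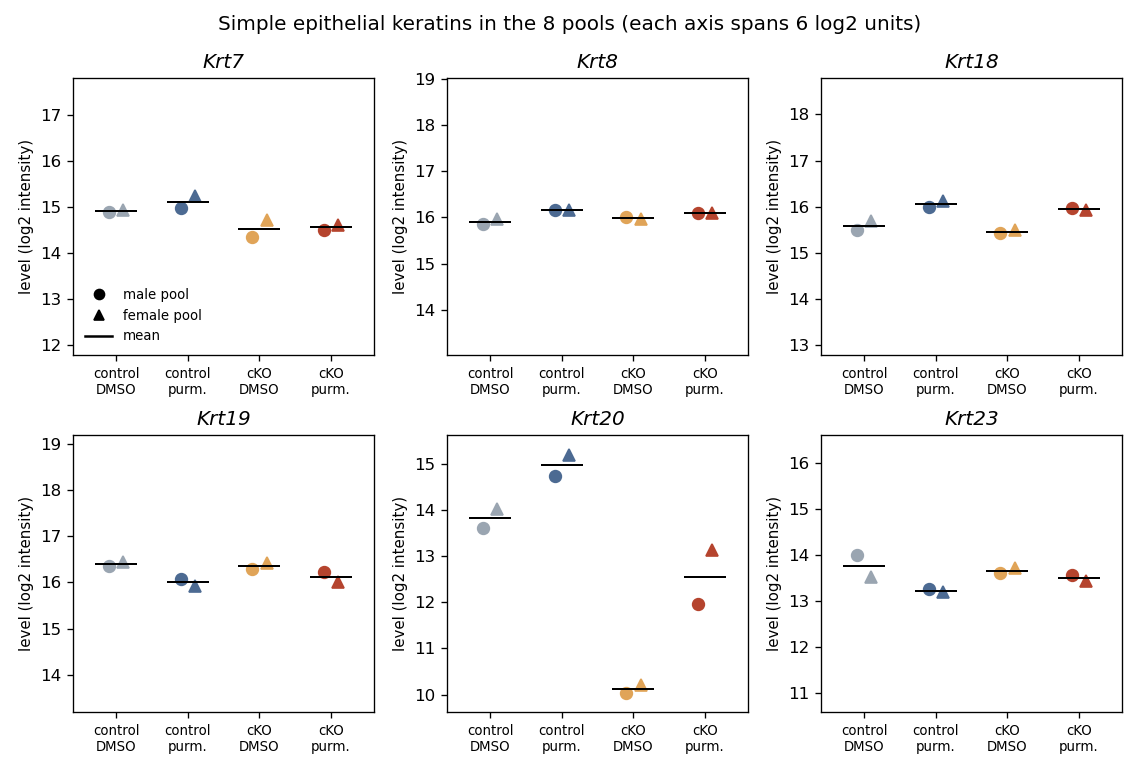
Log2 level (normalised intensity, y axis) of each simple epithelial keratin in the 4 groups, with the male pool as a circle, the female pool as a triangle and the mean as a bar; every y axis spans 6 log2 units, and levels of different genes are not comparable. Krt20 runs from 10.03 to 15.20, whereas the other 5 genes span between 0.32 and 0.89.

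Because the data bear on what moves with Krt20, the 250 bases before its transcription start are shown beside those of Krt8 and Krt18, the neighbouring pair that moved little (RefSeq, GRCm38.p6; 5 of the 6 genes had an entry). The Krt20 window is chr11:99438154-99438403 (minus strand), that of Krt8 chr15:102004343-102004592 (minus strand) and that of Krt18 chr15:102027966-102028215 (plus strand). Capitals mark the letters TATAAA, the core of a TATA box, and AGGTCA, a core read by many nuclear receptors, searched on both strands.
Krt20: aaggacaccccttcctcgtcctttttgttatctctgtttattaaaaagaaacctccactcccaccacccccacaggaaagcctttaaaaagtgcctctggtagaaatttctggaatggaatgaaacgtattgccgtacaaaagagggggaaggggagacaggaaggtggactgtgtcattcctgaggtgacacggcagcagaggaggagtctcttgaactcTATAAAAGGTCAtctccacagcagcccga
Krt8: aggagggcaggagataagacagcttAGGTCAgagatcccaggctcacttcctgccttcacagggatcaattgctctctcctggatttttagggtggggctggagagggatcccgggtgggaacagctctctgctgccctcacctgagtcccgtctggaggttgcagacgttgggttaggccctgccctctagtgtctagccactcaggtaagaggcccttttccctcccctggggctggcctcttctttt
Krt18: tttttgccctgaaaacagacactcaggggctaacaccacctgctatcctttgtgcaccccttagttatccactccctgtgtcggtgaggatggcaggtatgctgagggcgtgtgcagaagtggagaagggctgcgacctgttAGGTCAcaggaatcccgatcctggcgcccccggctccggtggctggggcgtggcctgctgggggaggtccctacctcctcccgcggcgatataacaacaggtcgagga
In Krt20, TATAAA spans bases 29 to 24 before the start and AGGTCA follows directly at bases 23 to 18. Krt8 holds 1 AGGTCA at bases 225 to 220, and Krt18 holds 1 at bases 108 to 103. Among all 32851 promoter windows of this length, 12.4% hold TATAAA and 14% hold AGGTCA. Neither a direct repeat of AGGTCA with 1 base between the copies (0.0335% of windows) nor GACCACCCA, the core bound by Gli factors (0.225% of windows), was found in the windows of Krt7, Krt8, Krt18, Krt20 or Krt23. These matches are letters in a window, and no binding was measured.

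The first comparison asked how the loss of Pparg changed the ureter in culture. With DMSO, Krt20 was 13-fold lower in Pparg-cKO ureters (log2 fold change −3.70 ± 0.37, SE; 95% confidence interval −4.58 to −2.83; adjusted p = 0.0048), with values of −3.59 for the male pools and −3.82 for the female ones. Krt20 was the 1 member called among 6, where 3.92% of all genes tested were called. Of the genes called lower, 1 fell further than Krt20. In these bulk samples, fewer cells that express a gene and less RNA per cell cannot be told apart. The call was lost without the male control array (−3.91, adjusted p = 0.057) and without the female control array (−3.50, adjusted p = 0.09).

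With purmorphamine present in both genotypes, Krt20 was 5.35-fold lower in Pparg-cKO ureters (log2 fold change −2.42 ± 0.37; 95% confidence interval −3.29 to −1.55; adjusted p = 0.024), and again it was the 1 member called, beside 3.14% of all genes. The male pools differed by −2.76 and the female ones by −2.08. Without the male Pparg-cKO array the difference was −1.84 (adjusted p = 0.078), and without either control array it was −2.66 (male left out, adjusted p = 0.14) or −2.19 (female left out, adjusted p = 0.21). The call was also lost with the processed signals of the scanner software (adjusted p = 0.073) and in a fit of the 4 purmorphamine channels alone (adjusted p = 0.094).

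Purmorphamine raised Krt20 5.38-fold in Pparg-cKO ureters (log2 fold change 2.43 ± 0.24; 95% confidence interval 1.82 to 3.04; adjusted p = 0.018). It rose by 1.94 on the male array and by 2.91 on the female array. Here 5.12% of all genes were called, and 10 of those called higher rose further than Krt20. Some settings took the call away, with sizes of 2.43 to 2.53 and adjusted p between 0.05 and 0.11: no filter on dim probes, the processed signals and the deposited value table.

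In control ureters Krt20 was 2.21-fold higher with purmorphamine (log2 fold change 1.15 ± 0.24; 95% confidence interval 0.54 to 1.76), with nearly the same value on both arrays, 1.12 and 1.17. The test did not call it (adjusted p = 0.099), and none of the 6 members was called by limma where 1.52% of all genes were. An unadjusted p under 0.05 by limma was reached by 4 of the 6, and by 3968 of the 20231 genes tested. Leaving out either Pparg-cKO array, which changes the estimate of the spread and not the value, brought Krt20 past the threshold (adjusted p = 0.016 each).

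Whether the treatment brought mutants to the level of untreated controls was read from the purmorphamine-treated Pparg-cKO pools against the DMSO controls. Krt20 was 2.42-fold lower in the treated mutants (log2 fold change −1.27 ± 0.37; 95% confidence interval −2.15 to −0.40), with −1.65 for the male pools and −0.90 for the female ones. This missed the threshold (adjusted p = 0.072), as did the other 5 members, while 11.4% of all genes were called. Without the female Pparg-cKO array it was −1.85 and passed (adjusted p = 0.031), and without the male one it was −0.70 (adjusted p = 0.26). The purmorphamine effect on Krt20 was larger in Pparg-cKO than in control ureters by 1.28 ± 0.34 (log2; 95% confidence interval 0.42 to 2.14; unadjusted p = 0.012; adjusted p = 1), a difference that did not pass after adjustment. In that test 0% of all genes were called by limma, whose lowest adjusted p was 0.83, and 671 genes had an unadjusted p under 0.05. These comparisons share pools: the DMSO mutants enter both the first and the treatment comparison, so their Krt20 values are not independent.

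**Figure D2:**
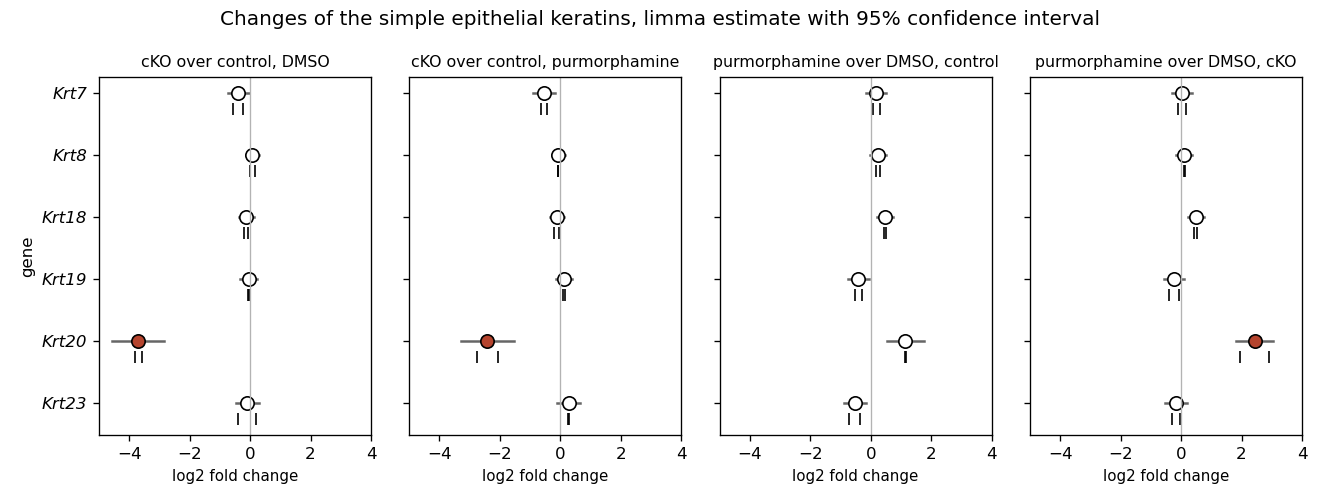
Log2 fold change (x axis) of the 6 simple epithelial keratins in 4 comparisons, as the limma estimate (circle, filled where the adjusted p is under 0.05), its 95% confidence interval (line) and the values of the male and female pools or arrays (ticks). Krt20 is filled in 3 of the 4 comparisons, at −3.70, −2.42 and 2.43, and the estimates of the other 5 genes lie between −0.54 and 0.49.

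Krt8 and Krt18, the pair of the simple epithelium, were not called between the genotypes. Krt8 had log2 levels of 15.85 and 15.97 in the male and female DMSO controls and of 16.00 and 15.97 in the DMSO mutants. With purmorphamine the levels were 16.17 and 16.15 in controls and 16.09 and 16.09 in mutants. All 8 values lay within 0.32 of each other. The genotype difference was 0.08 ± 0.09 with DMSO (95% confidence interval −0.13 to 0.28) and −0.07 ± 0.09 with purmorphamine (−0.28 to 0.14). The dimmer Krt8 probe (chr15:101828827-101828886, mm9) gave −0.02 ± 0.11 with DMSO and the same with purmorphamine. The probe that stands for Krt8 here lies at chr15:101827138-101827197 and is assigned to transcript AK166854.

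Krt18 had log2 levels of 15.50 and 15.69 in the DMSO controls and of 15.43 and 15.50 in the DMSO mutants, so that the groups touched. With purmorphamine they were 16.00 and 16.13 in controls and 15.97 and 15.93 in mutants. All 4 treated pools lay above all 4 DMSO pools, and how many of all genes tested separate by treatment was not counted. Purmorphamine over DMSO was 0.47 ± 0.10 in controls (1.38-fold; 95% confidence interval 0.21 to 0.73; adjusted p = 0.10) and 0.49 ± 0.10 in Pparg-cKO ureters (1.40-fold; 0.23 to 0.75; adjusted p = 0.066), and neither was called. A separate-channel fit called it in Pparg-cKO ureters (adjusted p = 0.04). The values of the 4 arrays were 0.50, 0.44, 0.54 and 0.43. After these had been seen, the mean of both genotypes was tested over all 4 arrays: Krt18 rose by 0.48 ± 0.07 (95% confidence interval 0.29 to 0.66; adjusted p = 0.019) and Krt20 by 1.79 ± 0.17 (1.36 to 2.22; adjusted p = 0.0078). That test called 14.2% of all genes and 2 of the 6 members. Krt8 had 0.18 ± 0.07 in it (−0.01 to 0.36; adjusted p = 0.18), with values of 0.32, 0.18, 0.09 and 0.12 on the 4 arrays, each smaller than that of Krt18 on the same array.

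Krt7, a type II keratin of ducts and urothelium, had log2 levels of 14.90 and 14.93 in the DMSO controls and of 14.34 and 14.71 in the DMSO mutants. With purmorphamine they were 14.97 and 15.23 in controls and 14.51 and 14.60 in mutants. The 4 mutant pools all lay below the 4 control pools. How many of all genes tested separate the genotypes in this way was not counted. The genotype difference was −0.39 ± 0.15 with DMSO (1.31-fold lower; 95% confidence interval −0.74 to −0.04; adjusted p = 0.26) and −0.54 ± 0.15 with purmorphamine (1.46-fold lower; −0.89 to −0.19; adjusted p = 0.12). Neither passed the test over all genes. Purmorphamine over DMSO was 0.19 ± 0.13 in controls and 0.03 ± 0.13 in mutants, with arrays of both signs in the mutants (0.17 and −0.11).

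Krt19, the smallest keratin, which lacks most of the tail domain, had log2 levels of 16.36 and 16.45 in the DMSO controls and of 16.29 and 16.42 in the DMSO mutants, which overlapped. With purmorphamine they were 16.08 and 15.92 in controls and 16.23 and 16.02 in mutants. All 4 treated pools lay below the 4 DMSO pools, a separation that was not counted over all genes tested. The treatment differences of −0.41 ± 0.13 in controls (95% confidence interval −0.75 to −0.06; adjusted p = 0.20) and −0.23 ± 0.13 in mutants (−0.58 to 0.11; adjusted p = 0.41) did not pass, and neither did their mean (−0.32 ± 0.10; adjusted p = 0.092).

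Krt23, the chromosomal neighbour of Krt20, was not called in any comparison. Its log2 levels were 13.99 and 13.53 in the DMSO controls, 13.60 and 13.72 in the DMSO mutants, 13.27 and 13.19 in treated controls and 13.56 and 13.43 in treated mutants. The genotype difference with DMSO was −0.10 ± 0.16 (95% confidence interval −0.47 to 0.28), with a negative value for the male pools (−0.39) and a positive one for the female pools (0.19). Purmorphamine over DMSO was −0.53 ± 0.14 in controls (−0.89 to −0.17; adjusted p = 0.14) and −0.17 ± 0.14 in mutants (−0.53 to 0.20; adjusted p = 0.60). It was lower on all 4 arrays, opposite to Krt20, but the mean of both genotypes was not called (−0.35 ± 0.10; adjusted p = 0.084).

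The rule of the study's methods asks for a scaled intensity above 100 and a change of at least 1.5-fold the same way in both replicate pairs, with no test. Under it Krt20 was lower in Pparg-cKO ureters with DMSO (5.5% of the 15423 genes above the intensity threshold changed) and with purmorphamine (6.28%). It was higher with purmorphamine in controls (6.45%) and in Pparg-cKO ureters (8.67%). The other 5 members did not meet the rule in any of these 4 comparisons. On a single replicate pair, Krt7 met it in the male pools with DMSO and in the female pools with purmorphamine, and Krt23 met it in the male control array.

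Of 46 further keratin genes on the array 29 were tested, and with DMSO 4 rose, 1 fell and 24 were not called in Pparg-cKO ureters, with a median log2 fold change of 0.22 against 0 for all genes and −0.11 for the 6 simple epithelial keratins. The median of the 29 was −0.05 for the male pools and 0.58 for the female ones. With 1 array left out it ranged from −0.01 to 0.47, and the number of calls moved both up and down. Krt17, a stress and wound keratin, had log2 levels of 7.65 and 6.71 in the male and female DMSO controls and of 9.88 and 11.63 in the DMSO mutants. It rose by 3.57 ± 0.57 (adjusted p = 0.021), which was 2.23 between the male and 4.92 between the female pools. Without the female Pparg-cKO array the Krt17 difference was 2.70 and was no longer called (adjusted p = 0.057), nor was it without the male (4.05, adjusted p = 0.11) or the female control array (adjusted p = 0.18). Krt75, Krt4 and Krt78, keratins of stratified epithelia and hair follicles, rose by 1.79 ± 0.13, 1.66 ± 0.17 and 1.57 ± 0.19 (adjusted p = 0.0016, 0.0055 and 0.0089), and Krt36, a hair keratin, fell by 0.60 (adjusted p = 0.043). The calls of Krt75, Krt4 and Krt78 held when either Pparg-cKO array was left out; those of Krt4 and Krt78 were lost when either control array was, that of Krt75 without the female one (adjusted p = 0.055), and that of Krt36 without any 1 of the 4 arrays. Krt15, a basal keratin, fell with purmorphamine in both genotypes, by 1.67 in controls (adjusted p = 0.032) and by 1.40 in mutants (adjusted p = 0.022). Krt4 did too, by 1.71 (adjusted p = 0.021) and 1.12 (adjusted p = 0.024). Without the male or the female control array the Krt15 value in controls was −1.65 or −1.7. Neither gene kept its call in controls in those fits. With purmorphamine in Pparg-cKO ureters 5 of the 29 fell and none rose, and the 7 basal and stress keratins had a median of −1.69 with 2 of them called. None of the 5 calls held without the female Pparg-cKO array, whereas more of the 29 were called lower without the male one. The median of the 29 was −0.51 in the fit, −0.76 without the male and −0.26 without the female Pparg-cKO array. Krt5 and Krt14, the basal pair, were not called in any of the 4 comparisons shown in the plot of changes. The genotype median of the basal and stress list with DMSO rests on the female mutants: it was 2.19 in the fit, 0.49 between the male pools and 0.70 without the female Pparg-cKO array. The median with purmorphamine in mutants was −1.13 for the male and −2.25 for the female pools, with all 7 genes lower on either array.

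Of 10 proteins that anchor or link keratin filaments, such as desmoplakin and plectin, none was called by limma between the genotypes with DMSO (1 had an unadjusted p under 0.05), and the list's median was 0.24. That median was 0.05 for the male pools and 0.39 for the female ones, and 0.04 without the female Pparg-cKO array. Dsp gave 0.46 ± 0.27, Eppk1 −0.24 ± 0.17, Evpl 0.00 ± 0.13 and Fam83h −0.06 ± 0.10. The gene furthest from 0 in the list was Pkp1, another plakophilin gene, with 1.98 ± 0.44 (adjusted p = 0.065), from 1.07 for the male pools and 2.88 for the female ones. Pkp2, a desmosomal plakophilin, fell with purmorphamine in Pparg-cKO ureters by 0.88 (adjusted p = 0.031) and was the 1 anchor called there. That call was lost without the male (−0.98) and without the female Pparg-cKO array (−0.79). Of 8 non-keratin intermediate filament genes none was called by limma in the genotype comparisons with DMSO or with purmorphamine or in the treatment comparisons within a genotype, where 5, 1, 5 and 5 had an unadjusted p under 0.05 with DMSO, with purmorphamine, in controls and in mutants. Des, the muscle filament desmin, gave 1.40 ± 0.26 with purmorphamine in mutants (adjusted p = 0.053) and −0.88 ± 0.26 between the genotypes with DMSO (adjusted p = 0.16). In the mean of both genotypes 3 of the 8 rose with purmorphamine, Des by 1.09 (adjusted p = 0.025), Synm by 1.04 (adjusted p = 0.024) and Vim by 0.50 (adjusted p = 0.022), and Lmnb1 fell by 0.43 (adjusted p = 0.036). Treated mutants against DMSO controls called 2 of the 8 higher, Nes with 0.84 (adjusted p = 0.0099) and Vim with 0.46 (adjusted p = 0.041). Fits on 3 of the 4 arrays called Nes once and Vim never.

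Superficial cell genes shared the sign of Krt20 in both genotype comparisons and in both treatment comparisons, but not in treated mutants against DMSO controls. All 6 (5 uroplakins and the transcription factor gene Grhl3) had lower values in the mutants than in the controls with DMSO and higher values with purmorphamine in both genotypes. In the first comparison 3 of them fell, Upk3b by 1.83 (adjusted p = 0.0048), Upk1a by 1.34 (adjusted p = 0.029) and Upk1b by 1.31 (adjusted p = 0.0099), and the list's median was −1.05 beside −3.70 for Krt20. With 1 array left out all 6 stayed lower, with medians from −1.24 to −0.84. The 3 calls did not all hold in any of those fits. Upk3a gave −0.24 ± 0.12 (adjusted p = 0.42). Between the genotypes with purmorphamine all 6 again had lower values in the mutants, with a median of −0.52 beside −2.42 for Krt20, and Upk3b alone was called (−1.07 ± 0.18; adjusted p = 0.034), a call lost without any 1 of the 4 arrays. With purmorphamine 5 of the 6 rose in Pparg-cKO ureters, led by Upk1a with 2.14 ± 0.16 (adjusted p = 0.014), and 2 of the 6 rose in controls, Upk1a 2.29-fold (adjusted p = 0.049), beside 2.21-fold for Krt20, and Upk1b 1.85-fold (adjusted p = 0.046). With 1 array left out all 6 stayed higher in both genotypes. Some of the 5 calls were lost without either Pparg-cKO array, and both calls in controls without either control array. In treated mutants against DMSO controls none of the 6 was called by limma (2 had an unadjusted p under 0.05). There 5 of the 6 had higher values in the treated mutants, with a median of 0.15, where Krt20 had −1.27. Without the male control array 3 were higher and 3 lower (median 0.03), as without the female Pparg-cKO array (0.09). Without the female control or the male Pparg-cKO array 5 were again higher (0.29 and 0.24). Whether Krt20 changed by more than these genes was not tested.

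**Figure D3:**
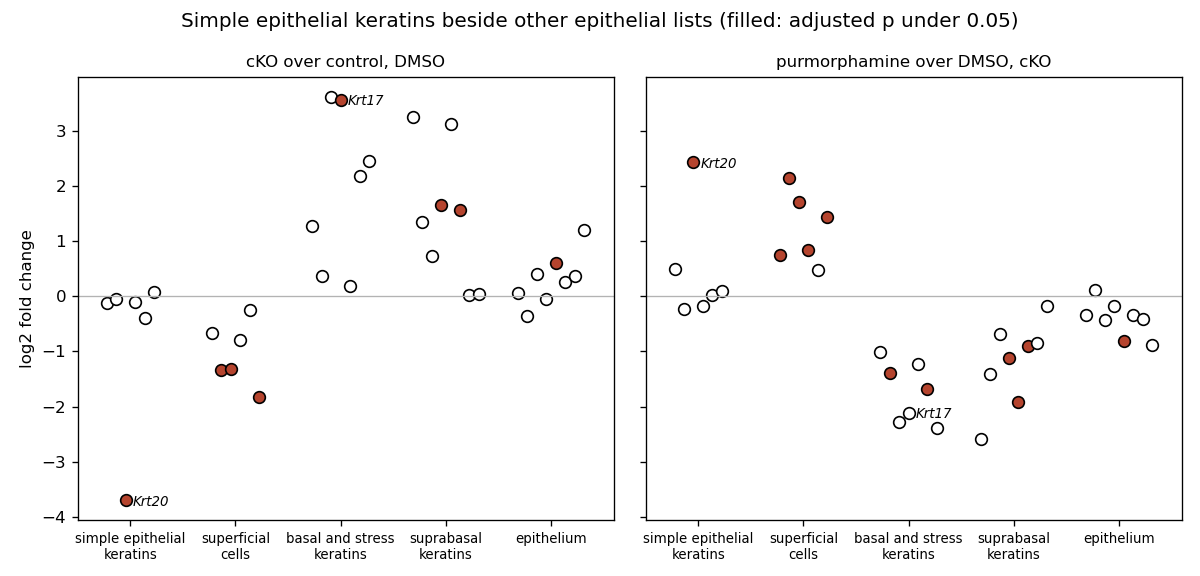
Log2 fold change (y axis) of each tested gene of 5 lists, for Pparg-cKO over control ureters with DMSO (left) and for purmorphamine over DMSO in Pparg-cKO ureters (right); a point is a gene, filled where the adjusted p is under 0.05. Krt20 lies at −3.70 and 2.43 apart from the other simple epithelial keratins, and the basal and stress keratins, with Krt17 at 3.57, lie on the opposite side of 0.

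The epithelium as a whole was present in every pool. All 8 general epithelial markers were well above background in all 8 pools, with a summed intensity of 40200 and 38200 in the DMSO controls and 40100 and 42300 in the DMSO mutants. With purmorphamine it was 35300 and 32700 in controls and 36000 and 32300 in mutants, and Cldn4 was the brightest throughout. Epcam rose in the mutants with DMSO by 0.61 ± 0.12 (adjusted p = 0.046) and fell with purmorphamine in both genotypes, and the other 7 markers were called in neither genotype comparison. With 1 array left out the Epcam difference with DMSO ranged from 0.46 to 0.75, and its call was lost each time. Its treatment calls were lost without either array of the same genotype, at −1.08 and −0.84 in controls and −0.91 and −0.71 in mutants. The 6 superficial cell markers summed to 69800 and 78900 in the DMSO controls, 44500 and 43500 in the DMSO mutants, 118000 and 133000 in the treated controls and 82600 and 99300 in the treated mutants, with Upk3a the brightest in each. The 6 basal cell markers, led by Krt5, summed to 70500 and 65100 in the DMSO controls and 70500 and 104000 in the DMSO mutants. With purmorphamine they summed to 65700 and 52200 in controls and to 51600 and 37600 in mutants, where 5 of the 6 had lower values than with DMSO (median −0.80) and none was called by limma (4 had an unadjusted p under 0.05). Trp63, a transcription factor of basal cells, was the 1 basal marker called between the genotypes: it was lower by 2.16-fold in treated mutants, both against treated controls (adjusted p = 0.011) and against DMSO controls (adjusted p = 0.0052). Its log2 levels were 14.16 and 14.16 in the DMSO controls, 14.06 and 14.26 in the treated controls, 13.54 and 13.75 in the DMSO mutants and 12.96 and 13.14 in the treated mutants. With 1 array left out the Trp63 difference between treated mutants and treated controls ranged from −1.21 to −1.01 (adjusted p from 0.036 to 0.14). The part of these shifts in the Krt20 values was not tested.

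Markers of other tissues moved as well. With purmorphamine the summed intensity of 5 smooth muscle markers, led by Acta2, went from 101000 and 122000 to 186000 and 177000 in controls and from 121000 and 103000 to 179000 and 217000 in mutants, and none of the 5 was called by limma in either genotype, although all 5 had an unadjusted p under 0.05 in both. The mean of both genotypes, the test that called Krt18 and Krt20, called all 5 smooth muscle markers and 3 of the 6 mesenchymal ones higher. It called 14.2% of all genes. Treated mutants against DMSO controls called the same numbers, 5 of 5 and 3 of 6, higher, beside 11.4% of all genes. With 1 array left out both lists stayed higher there, with medians from 0.61 to 1.1 for smooth muscle and from 0.51 to 0.75 for mesenchyme. These calls did not all hold in any of those fits. With purmorphamine the summed intensity of the 6 mesenchymal markers went from 82900 and 92000 to 139000 and 111000 in controls. In mutants it went from 83500 and 87000 to 131000 and 131000, and Pdgfrb was called there (0.71 ± 0.11, adjusted p = 0.037). The part of these shifts in the smaller treatment values of Krt18, Krt19 and Krt23 was not tested. For the genotype comparison, 6 mesothelial markers summed to 2730 and 3210 in the DMSO controls, where Upk3b, which superficial cells share, was the brightest, and to 6670 and 5340 in the DMSO mutants, where Msln was. Msln rose by 5.57 ± 0.32 (adjusted p = 0.00081), Wt1 was not called in that comparison, and Lrrn4 was not above background in any pool. With purmorphamine Wt1, a transcription factor gene of the mesothelium, was lower in the mutants (−2.75 ± 0.36; adjusted p = 0.029), from 10.67 and 10.96 to 7.14 and 8.99 in log2 level, and was called with any 1 array left out (−1.97 without the male and −3.53 without the female Pparg-cKO array). Bnc1 was also called lower there (adjusted p = 0.022), a call lost without the female Pparg-cKO array. Upk3b rose, and Msln and Gpm6a each gave −0.22 and were not called. In controls Wt1 went from 10.16 and 10.34 with DMSO to 8.99 and 9.22 with purmorphamine. Bnc1 went in controls from 6.95 and 6.86 to 6.32 and 6.29, and neither gene was called. Bnc1 was not well above background in the purmorphamine pools of either genotype. Treated mutants against DMSO controls gave −2.19 ± 0.52 for Wt1 (adjusted p = 0.042), which was −1.26 without the male Pparg-cKO array and was not called when the male or the female control array was left out (adjusted p = 0.22 and 0.16). Msln was higher in that comparison and between the genotypes with purmorphamine, by 5.35 ± 0.32 and 5.89 ± 0.32 (adjusted p = 0.0011 and 0.0010). Of 6 collecting duct markers Fxyd4 was the brightest in every pool and rose in the mutants by 2.58 ± 0.44 with DMSO (adjusted p = 0.028). That difference was 3.32 without the male and 1.84 without the female control array. Leaving out any array but the male control one removed the call. The 6 markers summed to 1120 and 441 in the DMSO controls and 4060 and 3850 in the DMSO mutants, with Calb1 not above background in 7 of the 8 pools. Beside Fxyd4 the list moved little: its median with DMSO was 0, with 3 genes higher and 2 lower. Mean log2 levels of Aqp2, Hsd11b2 and Scnn1g were 7.23, 6.69 and 6.62 in DMSO controls and 7.13, 6.69 and 6.19 in DMSO mutants. That of Avpr2 went from 6.3 to 6.76. The part of these markers in the Krt20 differences was not tested.

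The genes whose levels ran most like Krt20 over the 8 pools were Tdrp (Pearson r = 0.995), Cyp4f15, which encodes a cytochrome P450 of the fatty acid hydroxylating family (r = 0.995), and Rnf144b, a ubiquitin ligase gene (r = 0.991), among 20230 other tested genes. These correlations describe 8 channels that share arrays in pairs and carry no test. Cyp4f15 had log2 levels of 11.00 and 11.60 in the DMSO controls, 12.25 and 12.59 in the treated controls, 7.87 and 8.00 in the DMSO mutants and 9.77 and 10.25 in the treated mutants. Tdrp spanned 2.55 and Rnf144b 2.67 over the 8 pools, against 5.18 for Krt20.

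**Figure D4:**
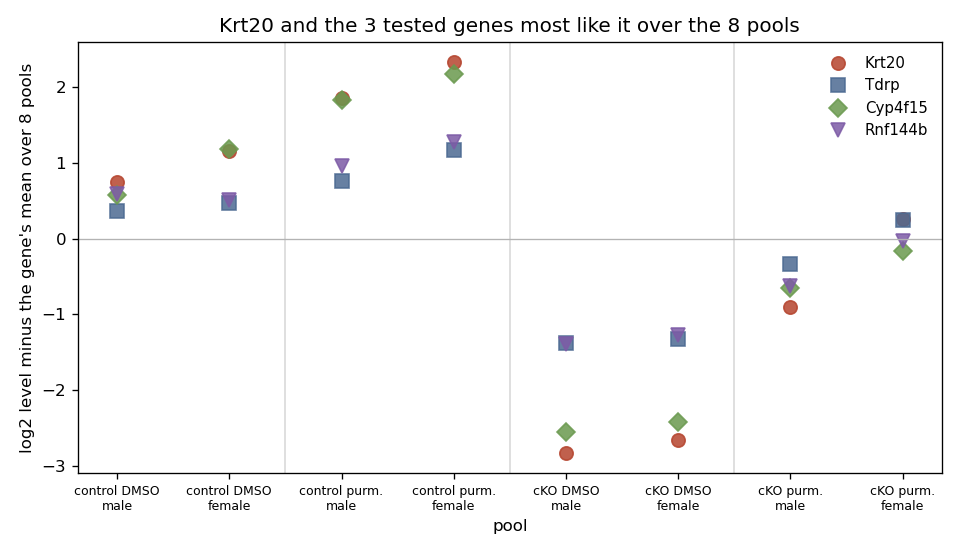
Log2 level minus the gene's mean over the 8 pools (y axis) of Krt20, Tdrp, Cyp4f15 and Rnf144b in each pool (x axis, male and female pool of each group). All 4 genes are lowest in the DMSO mutants and highest in the treated controls, with a span of 5.18 for Krt20 and of 2.55 to 4.71 for the others.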

How the data were processed

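Total RNA of 8 ureter pools was hybridised on 4 two-colour Agilent arrays (39429 probes, 4 spots each). The authors deposited scanner files with spot intensities from Agilent Feature Extraction (10.7.3.1 in the submitters' processing notes, 12.2.0.7 in the file headers). Per the file headers, these hold a log10 ratio of red over green processed signals, which was used to check the dyes. The deposited value table holds a score per probe, a signed fold ratio of purmorphamine over DMSO per probe (direction found from the scanner values, Pearson r 0.9953 to 0.9977 across probes; column medians 1); its centring is not stated, and it served as an alternative. The probes' coordinates are those of build mm9.

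Mean signals were background-corrected (normexp, offset 50), loess-normalised with control and outlier spots at weight 0, averaged per probe and Aquantile-scaled in R 4.3.3 with limma 3.58.1. Probes well above background in all channels of a group were tested (27066), each gene by its brightest one. Genotypes were compared in a separate-channel fit (intraspot correlation 0.056), treatments by log ratios within arrays, with Benjamini-Hochberg adjustment over 20231 genes and a threshold of 0.05. Folds are model estimates, and p-values measure the spread between pools of opposite sex and dye. Of all genes, 3190 had an unadjusted p under 0.05 by limma between the genotypes with DMSO and 3161 with purmorphamine. For purmorphamine it was 3968 in controls and 4495 in mutants, and it was 5726 in treated mutants against DMSO controls.

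The scripts recovered known large changes in simulated normalised values, which held no difference between the sexes. How well they recover small changes in pools like these was not tested. The keratins, lists and tests were chosen with earlier results of these data known. Named genes were the 6 keratins, list genes that were called, the first 4 of a list by alphabet, and the 3 genes most like a keratin that spans at least 1 log2 unit. Upk3a, Pkp1, Krt5, Krt14, Krt16, Krt1, Des, Wt1, Lrrn4, Calb1 and the brightest markers were named after their values were seen. Leaving out single arrays was extended to the called list genes after the data had been seen. Same-numbered deviations from the group means correlated at -0.149 for the DMSO pools and 0.47 for the purmorphamine pools, which does not settle whether the numbers, which mark sex and dye orientation in both genotypes, pair the samples; the fits have no replicate block.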

Additional observations from a re-analysis of the deposited data

Results flagged for a closer look

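For Krt8 the genotype difference (Pparg-cKO minus control) was 0.15 and 0.00 in the male and female pools with DMSO and −0.07 and −0.07 with purmorphamine. The female DMSO value is 0 at this precision, so the signs differ for the male pools alone. The difference of the effects was −0.15 (log2, SE 0.14), and its test in limma was not passed (adjusted p = 1). The dimmer Krt8 probe gave 0.09 and −0.13 with DMSO and a difference of the effects of 0.

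For Krt19 the genotype difference was −0.07 and −0.03 with DMSO and 0.15 and 0.10 with purmorphamine. The difference of the effects was 0.17 (log2, SE 0.19; adjusted p = 1). Both sizes are close to the spread between pools.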

How the results depend on the processing

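Krt20 kept its direction under each alternative run in all 6 comparisons. Its log2 fold change ranged from −3.91 to −3.50 for Pparg-cKO over control with DMSO (10 of 12 alternatives past the threshold), from −3 to −1.84 with purmorphamine (7 of 12), from 1.94 to 2.91 for purmorphamine in Pparg-cKO ureters (9 of 12), from 1.12 to 1.17 in controls (2 of 12), from −1.85 to −0.70 for treated mutants against DMSO controls (1 of 11) and from 0.80 to 1.77 for the difference of effects (0 of 12). The number of members called in Pparg-cKO over control with purmorphamine went from 1 to 0 with processed signals and with the 4 purmorphamine channels alone. For purmorphamine in Pparg-cKO ureters it went from 1 to 0 with processed signals, without the filter and with the deposited value table, and to 2 in the separate-channel fit; treated mutants against DMSO controls went from 0 to 1 (Krt18) with processed signals. Leaving out 1 array gave 0 to 1 members in both genotype comparisons, in treated mutants against DMSO controls and in purmorphamine over DMSO in controls; with 1 array left, its spread is taken from the other group. Under the rule of the methods, 1 replicate pair alone gave 1 to 2 members in both genotype comparisons and in purmorphamine over DMSO in controls.

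Directions turned for small values. With 1 array left out, the DMSO genotype difference ranged from −0.33 to 0.13 for Krt23 and from −0.11 to 0.01 for Krt19, the difference of effects from −0.04 to 0.07 for Krt18, and purmorphamine over DMSO in mutants from −0.11 to 0.17 for Krt7. The last was 0 in the deposited value table, and the dimmer Krt8 probe gave −0.02 for the DMSO genotype difference. The cause was not tested. Of the other listed genes that were called, 1 of 11 (Pparg-cKO over control with DMSO), 0 of 8 (with purmorphamine), 5 of 17 (purmorphamine in mutants), 0 of 6 (in controls) and 1 of 20 (treated mutants against DMSO controls) kept the limma call in all 4 fits with 1 array left out, and none of them turned direction there.

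With the replicate number as a block, members called were unchanged at 1 (Krt20) in both genotype comparisons and in purmorphamine over DMSO in Pparg-cKO ureters and at 0 in the other 3. Genes called among all tested fell from 793 to 340 (DMSO), from 636 to 156 (purmorphamine) and from 2306 to 817 (treated mutants against DMSO controls) under the block, and stood at 495, 234, 0 and 0 with processed signals for both genotype comparisons, purmorphamine in controls and purmorphamine in mutants. Without the filter, 13 were called for purmorphamine in controls and 323 in mutants, against 308 and 1036, and 0 and 0 with the deposited value table. The 4 DMSO channels alone gave 443 and the 4 purmorphamine channels alone 143. Leaving out 1 array gave 64 to 436 genes with DMSO and 17 to 343 with purmorphamine between the genotypes, 252 to 1379 in treated mutants against DMSO controls, 0 to 698 and 182 to 1182 for purmorphamine in controls and in mutants, and 0 to 44 for the difference of effects. A fold threshold of 2 left 405, 357, 300 and 470 genes under the rule of the methods, against 849, 962, 988 and 1335, and a single replicate pair gave 2372 to 2394, 1620 to 1878, 2476 to 2633 and 1887 to 3010.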
